A study of Drosophila melanogaster with 17 samples.

Results

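Among 12443 probe sets that carry a single gene symbol, 60 were level between the third instar larva and the white prepupa of Drosophila melanogaster and stood apart 5 h later in captured mushroom body neurons, 52 of them higher and 8 lower. Membership was decided by the measured values themselves. Counting hours from puparium formation, the group means at -18 h and at 0 h had to differ by less than 0.3 log2 units, the 5 h mean had to differ from both by at least 0.5 on the same side, and every 5 h value had to lie outside the range of the 14 other arrays. The levels and differences of the members given here are therefore descriptions, with no test. The 60 probe sets stand for 60 of the 10844 genes so measured.

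All animals had the genotype yw;UAS-mCD8::GFP/+;;OK107-GAL4, in which OK107-GAL4, an insertion at the eyeless locus, drives a membrane-bound GFP in mushroom body neurons and, as is known from other work, in some other brain cells. The larval group at -18 h held 7 arrays, the white prepupal group at 0 h another 7, and the group aged for a further 5 h only 3. Larvae were staged by dye in the gut, and the labels place them both in the early part of the third instar and among wandering larvae. For each array, 40 laser captures of about 100 cell bodies each were cut from frozen sections of 15 micrometres and pooled, and about 22 ng of RNA went through 2 rounds of linear amplification. The labels name the replicates biological and give no number of animals per pool, so the spread between arrays is that between pools. Each comparison is one of age, and technical measures given below moved with age too.

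Mushroom bodies are paired brain centres of olfactory learning. Their gamma neurons withdraw larval axon and dendrite branches early in the pupa, a pruning that depends on the steroid ecdysone, its receptor and downstream transcription factors. The ecdysone pulse at the end of larval life starts puparium formation, and the hormone then falls before it rises again later in the pupa. In the salivary gland and other tissues, a class of genes is known that stays silent during the first pulse and comes on in the prepupa.

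The capture was checked against markers. The transcription factor gene ey, a mushroom body marker, read 8.42 to 9.23 log2 in the 14 earlier arrays and 8.69 to 8.81 at 5 h, and the pan-neuronal gene elav 3.50 to 5.57 and 4.69 to 4.75. The mean of 19 mushroom body and neuron markers was 6.36 to 6.92 at -18 h, then 6.18 to 6.42 at 0 h and 6.09 to 6.28 at 5 h. Of these markers limma called toy higher at 5 h against 0 h, a contrast that chose it as a member, and prt, a vesicular transporter gene of these neurons (-1.73, adjusted p = 1.02e-05), 14-3-3zeta and mamo fell. At 0 h against -18 h it called 7 of the 19 lower, prt (-2.59) and futsch (-2.36) among them, and 1 higher. At 5 h against -18 h it called 5 lower and 1 higher. Over all 10844 genes, 1323 were called lower and 1642 higher at 0 h against -18 h, and 979 and 1323 at 5 h against -18 h. All 3 arrays at 5 h, larval arrays 4, 5 and 6 and 0 h arrays 1, 2 and 3 formed a set with lower hybridisation spike-in signal, 9.184 to 9.971 log2, where the other arrays had 10.135 to 10.706. Array 3 at 5 h stood apart from arrays 1 and 2 in several genes. The ecdysone-inducible genes ImpL1 and ImpE2 read 7.09 against 3.22 and 2.82, and 8.08 against 3.50 and 3.41. Cyp18a1, an ecdysteroid-inactivating enzyme gene, was at 6.46 against 3.08 and 2.97, and the serpin gene Spn43Aa at 9.82 against 5.74 and 5.43. Genes that stood apart in array 3 were not counted over all probe sets. Members that this array decides are given below with and without it.

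Of the 12443 probe sets, 9537 differed by less than 0.3 log2 between the -18 h and 0 h means. Of these, 91 had a 5 h mean at least 0.5 above both other means, and 14 at least 0.5 below both. Separation of every 5 h value from the other 14 arrays left 52 and 8. Over all single-symbol probe sets, 1.54% had all 5 h values above the 14 other arrays and 1.32% had all of them below, shares that include the members. Without the condition that the first step be level, 101 probe sets would have met the other conditions on the higher side and 47 on the lower. More or fewer copies of these transcripts per neuron and a changed mix of captured cells cannot be told apart in pooled cell bodies.

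**Figure D1:**
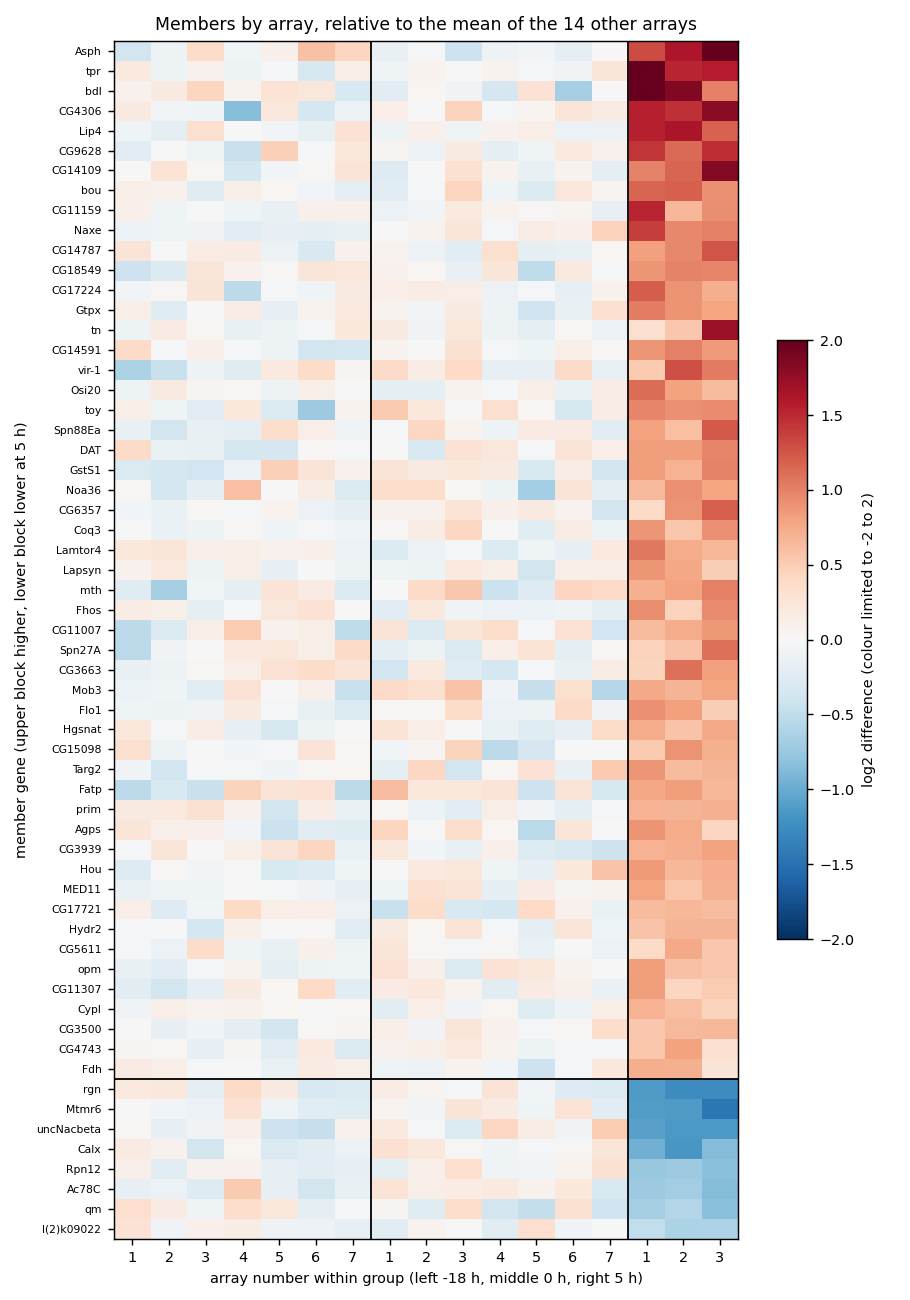
Each row is a member gene and each column an array, in blocks of 7 at -18 h, 7 at 0 h and 3 at 5 h from left to right; colour gives the log2 signal minus the mean of the 14 arrays at -18 h and 0 h, limited to between -2 and 2. The 52 members of the upper block are red in all 3 columns at 5 h and the 8 of the lower block are blue in all 3, as the rule requires, while Asph, tn and CG14109 are darkest in array 3.

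Across the 52 higher members the median difference of 5 h minus 0 h was 0.80 log2 and that of 5 h minus -18 h was 0.84, where the medians over all probe sets were -0.04 and -0.07. Across the 8 lower members the medians were -0.98 and -0.86. Only 9 higher and 3 lower members lay at least 1 log2 from the nearer of the other group means. The median range over the 3 arrays at 5 h was 0.36 log2 among the higher members, 0.16 among the lower members and 0.19 over all probe sets. Array 1 was the highest of the 3 for 19 higher members, array 2 for 13 and array 3 for 20, so no array led throughout. Of the higher members, 34 carry proper gene symbols and 18 bare annotation names, while all 8 lower members are named.

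**Figure D2:**
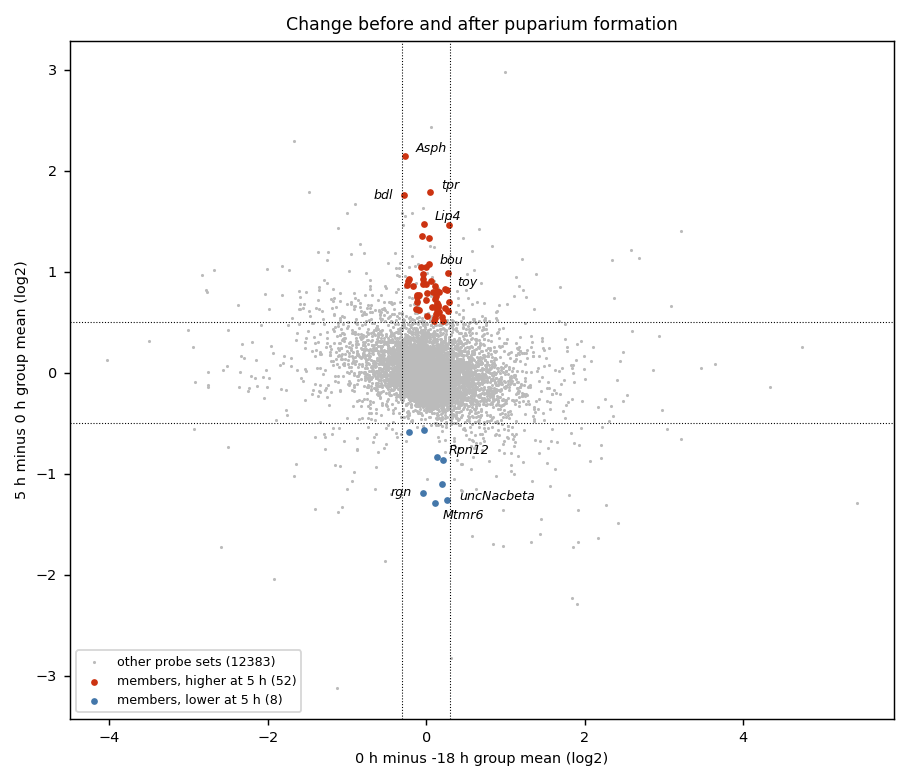
Each point is a single-symbol probe set, with the difference of 0 h minus -18 h group means on the x axis and of 5 h minus 0 h on the y axis, both in log2 units; dotted lines mark the limits of 0.3 and 0.5. The 52 higher and 8 lower members form narrow columns above and below the middle of the cloud of 12383 other probe sets.

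The first group is that of cell surface genes. The adhesion gene bdl (probe set 152364_at), borderless, codes for an immunoglobulin-superfamily protein known from axon targeting in the fly visual system. It read 4.44, 4.93 and 5.17 log2 as the lowest, median and highest of the 7 larval arrays, 4.08, 4.67 and 5.04 at 0 h, and 6.74, 6.60 and 5.75 in the 5 h arrays 1, 2 and 3. All 3 values at 5 h lay above the highest earlier array, array 3 by 0.576. The mean of 6.36 ± 0.539 (SD, n = 3) was 3.37-fold that at 0 h and 2.78-fold that at -18 h. bdl was also near the edge of the rule, since its larval mean of 4.89 exceeded its 0 h mean of 4.61 by 0.278, just under the limit.

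The gene bou (144635_at), boudin, encodes a Ly6-family protein needed for septate junctions, the barriers between epithelial and between glial cells. It ran from 5.99 to 6.36 with a median of 6.28 at -18 h and from 5.96 to 6.67 with a median of 6.22 at 0 h, and read 7.41, 7.44 and 7.16 at 5 h. The 5 h mean of 7.34 ± 0.151 (SD, n = 3) was 2.11-fold the 0 h mean, with no overlap. DAT encodes the plasma membrane dopamine transporter. Its 5 h arrays read 4.86, 4.86 and 4.99, against 3.67 to 4.4 with a median of 3.88 at -18 h and 3.72 to 4.31 with a median of 4.15 at 0 h, 1.74-fold above the 0 h mean. The lower quartile of all probe sets, as the median over arrays, was 3.39.

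Other members of the cell membrane had smaller differences. Lapsyn, a leucine-rich-repeat protein gene known from synapse development, read 5.95, 5.84 and 5.56 at 5 h against at most 5.27 earlier. mth, methuselah, a G-protein-coupled receptor gene known for its effect on lifespan, read 5.76, 5.85 and 6.06, with a highest earlier array of 5.59. Its mean moved up by 0.288 between -18 h and 0 h, just inside the limit, and by 0.69 between 0 h and 5 h. Flo1, which encodes flotillin, a scaffold of membrane microdomains, was a bright member, at 9.04, 8.95 and 8.63 against at most 8.52, and 1.59-fold above its 0 h mean.

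Among transcription factor genes, toy (152583_at), twin of eyeless, is a Pax6 gene that acts upstream of ey and marks mushroom body neurons. It ran from 7.48 to 8.42 log2 with a median of 8.12 at -18 h and from 7.88 to 8.73 with a median of 8.35 at 0 h. The 5 h arrays read 9.18, 9.12 and 9.15, close to each other and above every earlier array. The 5 h mean of 9.15 ± 0.0304 (SD, n = 3) was 1.76-fold the 0 h mean and 2.11-fold the larval mean. The other Pax6 gene, ey, went from 8.97 to 8.66 and 8.75 in the 3 group means, a change of 0.09 at the later step. MED11, a subunit of the Mediator complex that links transcription factors to RNA polymerase, read 7.23, 6.99 and 7.15 at 5 h against at most 6.76, and the nucleolar zinc-finger gene Noa36 read 7.20, 7.46 and 7.34 against at most 7.14.

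A protease gene and a pair of serpin genes, which encode protease inhibitors, are among the higher members. The serine protease gene tpr (151724_at) read 2.24, 2.52 and 2.76 log2 as lowest, median and highest at -18 h, 2.48, 2.55 and 2.80 at 0 h, and 4.90, 4.09 and 4.14 at 5 h. The earlier levels lay below the lower quartile of 3.39. The 5 h mean of 4.38 ± 0.454 (SD, n = 3) was 3.45-fold the 0 h mean, and the gap of 1.291 between its lowest 5 h array and its highest earlier array was the widest of the 60 members. Spn88Ea, a serpin gene, read 5.59, 5.39 and 6.02 at 5 h, against 4.42 to 5.14 with a median of 4.64 at -18 h and 4.56 to 5.20 with a median of 4.87 at 0 h. Spn27A, a serpin gene known for holding back melanisation and Toll signalling, read 5.37, 5.47 and 6.01 against at most 5.28. Array 3 was the highest for both serpins, and without it the distance of Spn27A from the nearer group mean was 0.48, short of the rule, as was that of CG3500 with 0.49.

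The gene vir-1 is known as an RNA induced by viral infection. Its 5 h arrays read 4.95, 5.71 and 5.47, against 3.79 to 4.79 with a median of 4.32 at -18 h and 4.26 to 4.82 with a median of 4.57 at 0 h. The gap to the earlier arrays was small, 0.134. Osi20 belongs to an insect gene family known from cuticle-forming epithelia. It read 6.30, 5.98 and 5.81 at 5 h, against 5.07 to 5.35 with a median of 5.21 and 4.99 to 5.33 with a median of 5.16 before, and its 5 h mean was 1.84-fold the 0 h mean. The mean of 14 cuticle and epidermis markers was 4.68 to 4.89 at -18 h, then 4.57 to 4.74 at 0 h and 4.54, 4.54 and 4.73 in the 5 h arrays. At 5 h against 0 h, 0 of the 14 genes passed limma's test in either direction (1 higher and 0 lower at an unadjusted p under 0.05). The higher one, Edg78E, read 3.26, 3.22 and 5.12 at 5 h, high in array 3 alone.

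Several higher members are enzymes of lipid handling, redox balance and cofactor supply. Lip4 (146165_at), a lipase gene, ran from 5.37 to 5.88 log2 with a median of 5.51 at -18 h and from 5.45 to 5.69 with a median of 5.47 at 0 h. At 5 h the arrays read 7.12, 7.20 and 6.74, all well above the earlier range. The mean of 7.02 ± 0.246 (SD, n = 3) was 2.78-fold the 0 h mean and 2.72-fold the larval mean. Fatp, a fatty acid transport protein gene, read 6.98, 7.05 and 6.87 against at most 6.82. In the lower spike-in set alone its 5 h minus -18 h difference was 0.43 rather than 0.88, short of the rule. Agps, a gene of ether lipid synthesis, read 6.72, 6.56 and 6.25 against at most 6.25. Agps passed the non-overlap condition by 0.000293 log2, the narrowest margin of all members.

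Gtpx (141815_at), a glutathione peroxidase gene, read 9.01, 8.89 and 8.78 at 5 h. Earlier it ran from 7.74 to 8.19 with a median of 8.06 and from 7.59 to 8.31 with a median of 7.94. Its 5 h mean of 8.89 ± 0.113 (SD, n = 3) was 1.90-fold the 0 h mean, with no overlap. GstS1, the sigma-class glutathione S-transferase gene, read 6.72, 6.58 and 6.88 at 5 h, against 5.51 to 6.37 with a median of 5.77 and 5.52 to 6.15 with a median of 6.06, and was 1.74-fold above its 0 h mean. Fdh, a formaldehyde dehydrogenase gene, read 7.94, 7.93 and 7.48 against at most 7.43, with a distance of 0.502 from its nearer group mean, the smallest that the rule admits here.

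Cofactor and organelle genes follow. Naxe (144782_at), the epimerase that repairs damaged NAD(P)H, ran from 5.07 to 5.21 with a median of 5.13 at -18 h and from 5.23 to 5.74 with a median of 5.37 at 0 h, and read 6.66, 6.24 and 6.28 at 5 h. Its 5 h mean was 1.98-fold that at 0 h, after a first step of 0.27 in the same direction in which the larval and 0 h arrays did not overlap. Coq3, a gene of coenzyme Q synthesis, read 5.14, 4.81 and 5.16 against at most 4.67. The lysosomal enzyme gene Hgsnat read 7.10, 6.93 and 7.11 against at most 6.73, and Lamtor4, a subunit of the lysosomal Ragulator complex that anchors TOR signalling, read 7.74, 7.44 and 7.36 against at most 6.93. Naxe and Hou were the 2 members called by limma between 0 h and -18 h, both higher at 0 h, where 25.5% of all probe sets were called. The rule asks for a level first step, so nothing follows from that low count.

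Asph (147279_at) encodes an aspartyl beta-hydroxylase. Its lowest, median and highest values were 3.74, 4.23 and 4.71 log2 at -18 h and 3.72, 4.02 and 4.12 at 0 h, and the 5 h arrays read 5.44, 5.75 and 7.22. All 3 lay above the earlier arrays, but array 3 was far above the other 2. The mean of 6.14 ± 0.951 (SD, n = 3) was 4.42-fold the 0 h mean, and the log2 difference of 2.14 was 1.60 without array 3, below those of bdl (2.06) and tpr (1.90) without it. tn, thin, a TRIM-family gene known from muscle, rested on that array even more. It ran from 3.50 to 3.85 with a median of 3.62 and from 3.47 to 3.87 with a median of 3.58, and read 3.97, 4.19 and 5.37 at 5 h. Its difference of 0.87 from 0 h was 0.44 without array 3, and it then no longer met the rule. The mean of 11 muscle markers was 4.70, 4.75 and 4.87 in the 5 h arrays and 4.68 to 4.78 at 0 h.

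**Figure D3:**
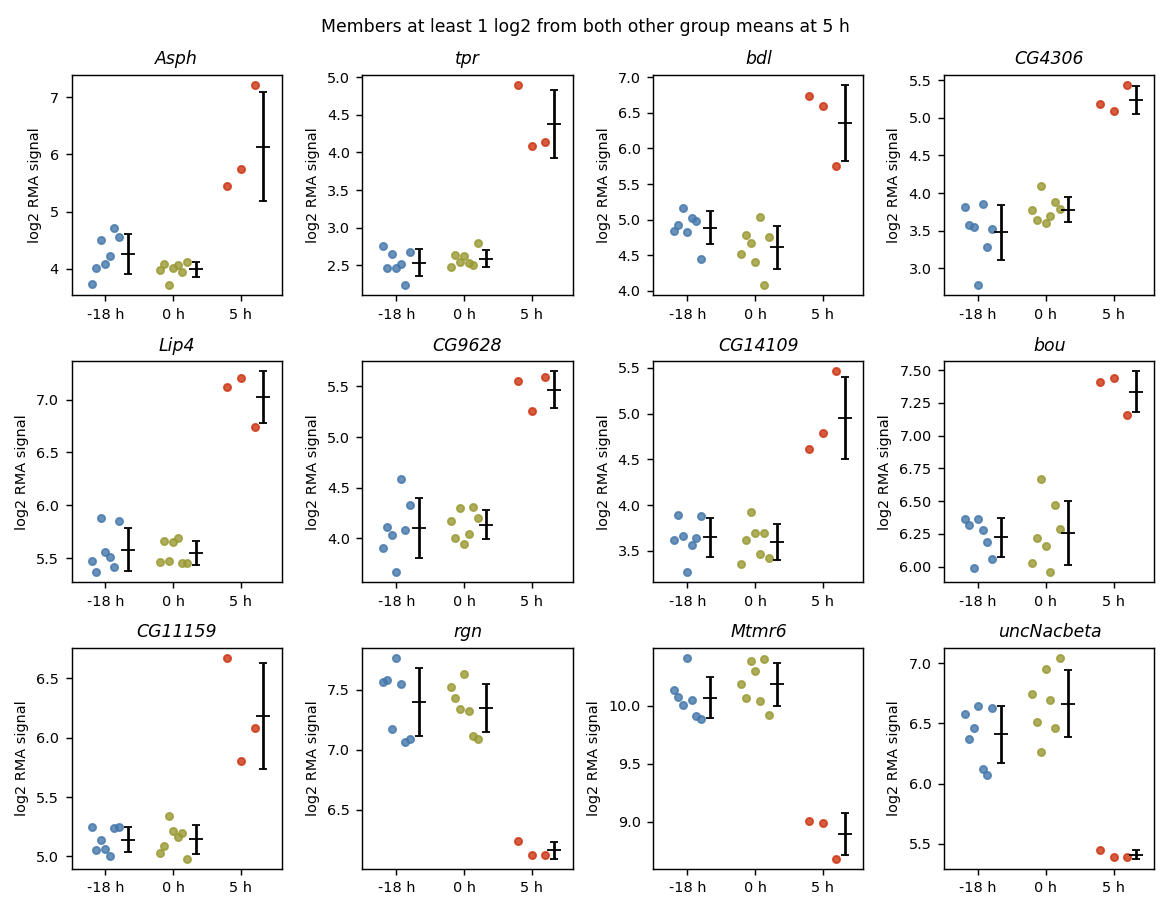
Log2 RMA signal of the 9 higher and 3 lower members whose 5 h mean lies at least 1 log2 from both other group means; each point is an array (7 at -18 h, 7 at 0 h, 3 at 5 h), and black bars show the mean and SD, on axes that do not start at 0. Asph and CG14109 have their highest value in array 3 (7.22 and 5.46) and bdl its lowest (5.75), while the 3 arrays of rgn and uncNacbeta lie close together.

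Cytoskeletal and trafficking genes were among the remaining named members. Fhos, a formin gene, read 4.71, 4.23 and 4.72 against at most 4.07, and opm, opossum, a p24-family cargo receptor gene of the early secretory pathway, read 5.35, 5.10 and 5.05 against at most 4.81. Mob3, of the Mob family of kinase co-activators, read 5.17, 5.08 and 5.19 against at most 4.97. In the lower spike-in set alone its 5 h minus 0 h difference was 0.32 rather than 0.67. Cypl, a cyclophilin-like gene, read 6.16, 6.06 and 5.91 against at most 5.60. The genes prim, Targ2, Hydr2 and Hou complete the named members, with 5 h means of 8.88, 4.44, 8.19 and 6.68 and distances from the nearer group mean of 0.63, 0.65, 0.58 and 0.61.

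Among members with bare annotation names, CG4306 (148995_at) read 5.18, 5.09 and 5.44 log2 at 5 h. Its earlier values ran from 2.78 to 3.86 with a median of 3.55 and from 3.60 to 4.09 with a median of 3.77, so the 5 h mean was 2.75-fold the 0 h mean. Its first step of 0.293 was the largest within the limit of 0.3. CG9628 (153786_at) read 5.55, 5.26 and 5.59, against 3.67 to 4.59 with a median of 4.08 and 3.94 to 4.31 with a median of 4.17, 2.52-fold above 0 h. CG14109 (148713_at) read 4.61, 4.79 and 5.46, against 3.27 to 3.89 with a median of 3.64 and 3.36 to 3.92 with a median of 3.62, and its difference of 1.35 was 1.10 without array 3. CG11159 had array 1 as its highest, with 6.67, 5.80 and 6.08 against at most 5.34. The other 14 members of this kind had 5 h means between 3.76 (CG6357) and 7.99 (CG3939) and lay 0.51 (CG4743) to 0.98 (CG14787) from the nearer group mean. CG4743, also known as Samc, encodes the mitochondrial carrier of S-adenosylmethionine.

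On the lower side, rgn (152405_at), regeneration, encodes a C-type lectin. It ran from 7.06 to 7.76 log2 with a median of 7.55 at -18 h and from 7.09 to 7.63 with a median of 7.34 at 0 h, and read 6.24, 6.12 and 6.12 at 5 h. The groups did not overlap, by 0.822, and the 5 h mean of 6.16 ± 0.0664 (SD, n = 3) was 2.28-fold below the 0 h mean. Mtmr6 (142172_at), a myotubularin-family phosphatase gene that acts on phosphoinositides of endosomes, was the brightest of the 8. Its values ran from 9.89 to 10.41 with a median of 10.05 and from 9.92 to 10.40 with a median of 10.19, and were 9.01, 8.99 and 8.68 at 5 h. The 5 h mean of 8.89 ± 0.187 (SD, n = 3) was 2.45-fold below that at 0 h.

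uncNacbeta (145536_at), a beta subunit of the nascent polypeptide-associated complex that meets new proteins at the ribosome, read 5.45, 5.39 and 5.39 at 5 h. It had run from 6.07 to 6.64 with a median of 6.46 and from 6.26 to 7.04 with a median of 6.69, so its 5 h mean of 5.41 ± 0.0348 (SD, n = 3) was 2.39-fold below 0 h. Calx, the sodium-calcium exchanger gene, read 2.92, 2.71 and 3.02 at 5 h, against 3.51 to 4.04 with a median of 3.77 and 3.80 to 4.19 with a median of 3.91. At 5 h it lay under the array's lower quartile of 3.39, where differences are compressed, and was 2.15-fold below its 0 h mean. Ac78C, an adenylyl cyclase gene, read 5.70, 5.73 and 5.55, against 6.05 to 6.94 with a median of 6.26 and 6.11 to 6.69 with a median of 6.57, 1.82-fold below 0 h.

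Rpn12 (144246_at), a subunit of the regulatory lid of the proteasome, the particle that degrades ubiquitin-tagged proteins, read 7.86, 7.89 and 7.78 at 5 h. Its earlier values ran from 8.39 to 8.71 with a median of 8.45 and from 8.42 to 8.95 with a median of 8.68, and the 5 h mean was 1.79-fold below the 0 h mean. qm, a geranylgeranyl pyrophosphate synthase gene, read 4.04, 4.12 and 3.86 at 5 h, against 4.52 to 5.06 with a median of 4.87 and 4.22 to 5.05 with a median of 4.46. The gene l(2)k09022, whose yeast relative acts in ribosome biogenesis, read 4.45, 4.32 and 4.33, against 4.79 to 5.23 with a median of 4.88 and 4.72 to 5.28 with a median of 4.94.

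The limits of the rule cut through a continuum. Just outside the limit on the first step were wun2 (0.3 when rounded), Oat (0.305) and SNF4Agamma (0.316), against CG4306, mth (0.288) and bdl (0.278) just inside, and 88 probe sets failed on that condition alone. At the second limit Fdh, CG4743 (0.510) and CG3500 (0.514) were admitted, while Gdi (0.489), Rpp25 (0.487) and jtb (0.476) were not, and 151 failed on that condition alone. For the gap between the 5 h values and the 14 others, Agps, CG5611 (0.0111) and CG11307 (0.0266) were inside. MTF-1 (-0.00734), Dpm1 (-0.0282) and CG17597 (-0.0321) overlapped by a little, and 45 failed on overlap alone. For comparison, limma called 55 of the 60 members at 5 h against 0 h, 48 higher and 7 lower, where 3.77% of all probe sets were called (2.36% higher, 1.42% lower). At 5 h against -18 h it called 60, where 20.0% were called (11.0% higher, 9.06% lower). The members were chosen on these contrasts, so nothing follows from those counts. The 5 without a call against 0 h were mth, CG11007, Mob3, Fatp and qm.

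A view across gene families set the members beside their relatives, which were picked by symbol after the members were known and carry no test. Of the 12 Rpn genes measured, Rpn12 alone is a member. The other 11 differed by -0.92 to -0.12 log2 between 0 h and 5 h, so every one was lower at 5 h, Rpn12 among them with -0.84. Between -18 h and 0 h the others differed by -0.04 to 1.58, with Rpn8 at 1.58, Rpn2 at 1.23 and Rpn11 at 1.17, whereas Rpn12 moved by 0.14. Rpn1, Rpn12R and Rpn13R had differences of 0.42, -0.04 and 0.09, the latter 2 at larval levels of 3.34 and 3.37. At 5 h Rpn2, Rpn3, Rpn5, Rpn6, Rpn7, Rpn8, Rpn11 and Rpn13 were 0.05 to 0.91 above their larval means, and Rpn12 was 0.70 below its own.

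Most other relatives of the members stayed near 0 at the later step. The 2 other genes of the nascent polypeptide-associated complex, Nacalpha and bic, differed by 0.07 and -0.18, against -1.26 for uncNacbeta. The 3 other myotubularin-family genes differed by -0.13 to 0.05, against -1.29 for Mtmr6. Flo2, the partner of Flo1, differed by -0.12, and Fatp2 and Fatp3 by -0.19 and -0.14. The 9 other genes of the methuselah family differed by -0.29 to 0.21, and the 6 other Coq genes by -0.25 to 0.41, with Coq8 the highest. The 3 other Lamtor genes differed by -0.05 to 0.33.

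Larger families held single genes with shifts of a similar size. Among 33 other glutathione S-transferase genes the differences ran from -1.17 for GstZ2 to 0.66 for GstE3, and GstE3 had been 0.73 lower at 0 h than in the larva. Among 19 other Mediator genes MED10 was 0.56 higher at 5 h after a first step of -1.06. Ac13E, among 8 other adenylyl cyclase genes, was 0.62 lower at 5 h after a first step of 0.87. Among 23 other serpins the highest, Spn43Aa with 0.99, rested on 5 h array 3, and so did Osi6 with 0.71 among 23 other Osiris genes, at 5.96 in array 3 and 3.94 and 3.73 in the other 2.

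**Figure D4:**
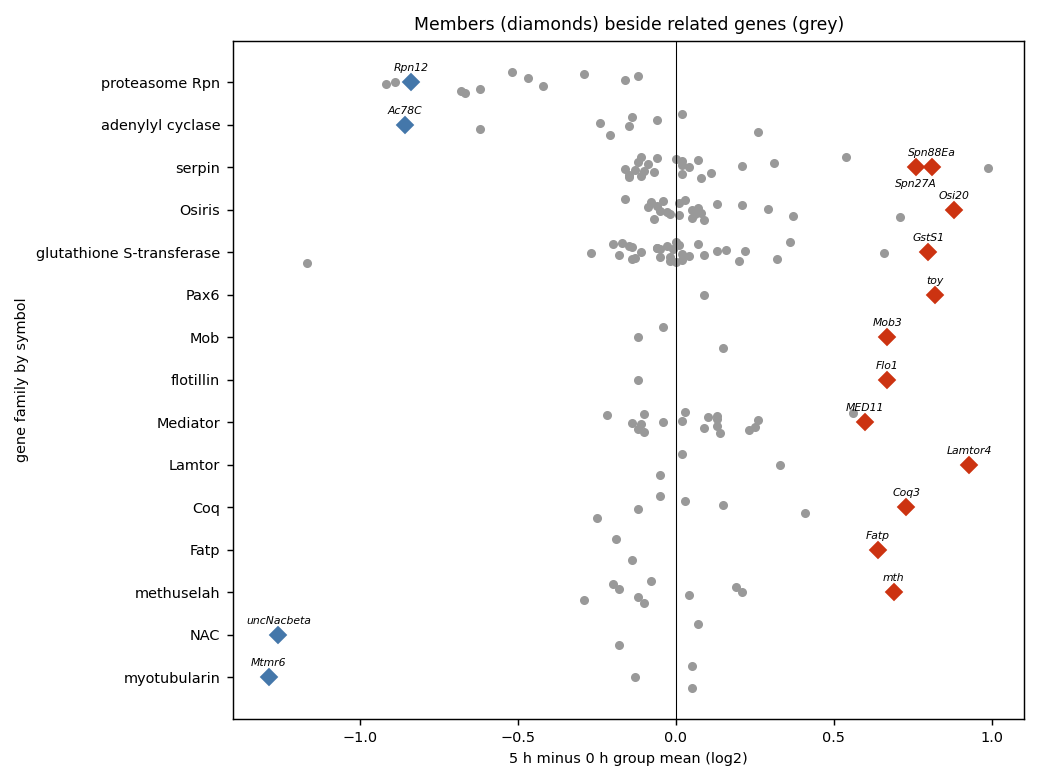
Difference of 5 h minus 0 h group means in log2 units, 1 point per gene, for gene families named by symbol; red and blue diamonds are members higher and lower at 5 h and grey points are other measured genes of the family. All 11 grey points of the proteasome Rpn family lie below 0 (-0.92 to -0.12), while the relatives of Mtmr6 and uncNacbeta lie between -0.18 and 0.07.

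For 5 member genes the array carries a further probe set that the rule did not take. The other probe set of Mtmr6 (142171_at) went from 6.26 at -18 h and 6.16 at 0 h to 5.84 ± 0.131 (SD, n = 3) at 5 h. That of Ac78C (151124_s_at) went from 3.86 and 3.63 to 3.40 ± 0.118. Both moved in the direction of the member with a smaller difference from 0 h, -0.32 and -0.23 against -1.29 and -0.86, and the 5 h values overlapped the earlier arrays in array 3 of Mtmr6 and in all 3 arrays of Ac78C. The other probe set of vir-1 (146285_at) read 2.49, 2.91 and 3.93 at 5 h, high in array 3 alone. For Asph (153202_at) and Fhos (154230_at) the other probe sets differed by -0.02 and -0.01 between 0 h and 5 h, at 5 h means of 2.92 and 3.67. The difference seen for these 5 genes thus depends on the probe set. Probe sequences were not used here. Of the 59 members found in the gene table, 27 overlap another gene, such as Ccz1 at Lamtor4 or ogre at bou, and which of the overlapping genes a probe reads was not tested. The members did not sit beside each other. The closest pair had 7 genes between them. Neither the overlap count nor this distance was computed for other genes, so neither sets the members apart from them.

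Technical measures moved with age too. The mean of the 52 higher members was 5.28 to 5.40 log2 in the larval arrays, 5.26 to 5.47 at 0 h and 6.22 to 6.28 at 5 h. The rule itself keeps every earlier array apart from those at 5 h. All 5 h arrays belong to the lower spike-in set, and among the earlier arrays the mean was 5.37 in the lower and 5.32 in the higher set at -18 h, and 5.43 and 5.34 at 0 h. For the 8 lower members it was 6.53 and 6.54 at -18 h, 6.65 and 6.59 at 0 h, and 5.59 to 5.71 at 5 h. One of the spike-in probe sets, of the BioDn control, read 7.69 to 7.98 at 5 h and 7.98 in 0 h array 1, against at least 8.82 in the other arrays. Within the lower spike-in set alone, 35 of the 52 higher and 7 of the 8 lower members met the rule. That setting only drops earlier arrays, so no member could fail on overlap, and only the conditions on means were open. There the 5 h minus -18 h difference of CG11307 was 0.38 rather than 0.64. The part of the spike-in set in the members was not tested.

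**Figure D5:**
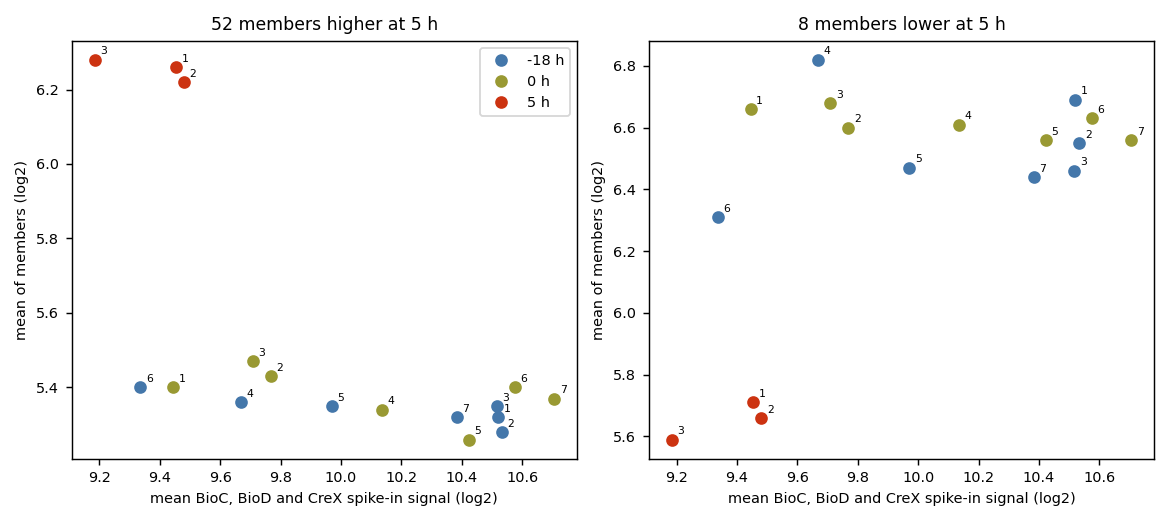
Mean log2 signal of the 52 higher (left) and 8 lower (right) members in each array against the mean signal of the BioC, BioD and CreX hybridisation spike-ins in log2 units; numbers are array numbers within each group and axes do not start at 0. The separation of the 5 h arrays is fixed by the rule; the 14 earlier arrays run from 5.26 to 5.47 on the left, and their spike-in signal from 9.336 to 10.706.

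For the eIF4a control, the probe set at the transcript's end exceeded the one at its middle, a gap that amplification widens, by 2.91 to 3.12 at -18 h, then 2.53 to 3.0 at 0 h and 2.56 to 2.59 at 5 h. That of actin was 3.04 to 3.84, 2.36 to 3.45 and 2.65 to 2.86. The part of this in the members was not tested.

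Markers of other cell types were read on the same arrays. Of 12 measured glia markers 2 rose and 0 fell at 5 h against 0 h, where 2.64% of the 10844 genes were called higher and 1.51% lower (0 glia markers were lower at an unadjusted p under 0.05). wrapper, a glial adhesion gene, rose by 0.77 (limma adjusted p = 0.00272), back to its larval level of 8.33, and nrv2, a sodium pump subunit, by 1.09 (0.00722), to 5.93, 5.90 and 6.16, all above the 14 earlier arrays. repo, the defining glial transcription factor, differed by -0.17 (0.838), after a rise of 1.04 between -18 h and 0 h (0.000142). At 5 h against -18 h limma called 4 of the 12 glia markers higher and 1 lower, where 1323 and 979 of the 10844 genes were called. The mean of the glia list was 5.19 to 5.54 at -18 h, then 5.29 to 5.73 at 0 h and 5.62 to 5.79 at 5 h. The part of glia in the members, bou among them, was not tested.

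Fat body transcripts were uneven. The mean of 8 fat body markers was 6.61 to 8.28, 6.01 to 7.29 and 6.88 to 8.0 in the 3 groups, with 0 genes past limma's test in either direction at 5 h against 0 h, 2 higher at an unadjusted p under 0.05, and a median difference of 0.78. Fbp1, a fat body receptor gene, read 7.34, 8.93 and 7.94 at 5 h against at most 7.77 before. Array 2 was the highest 5 h array in Fbp1 and Obp99b. Hemocyte and basement membrane markers (13) averaged 3.76 to 4.64, 3.86 to 4.10 and 4.06 to 4.26, neuroblast and cell cycle markers (14) 4.83 to 5.05, 4.46 to 4.88 and 4.58 to 4.61, and photoreceptor markers (9) 4.10 to 4.28, 4.08 to 4.23 and 3.99 to 4.12. Salivary gland markers (13) averaged 3.61 to 7.29, 3.56 to 3.70 and 3.48 to 3.55, and muscle markers (11) reached 6.48 in the larva. In each of these lists 0 genes passed limma's test at 5 h against 0 h, and at an unadjusted p under 0.05 there were 1 higher hemocyte marker, 1 lower photoreceptor marker and 0 in the others. The part of fat body and of these cell types in the members was not tested.

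The pathways known from pruning were read from lists, on genes that are not members. Of 30 measured genes of the ecdysone hierarchy, 0 are members, 1 rose and 7 fell at 5 h against 0 h, with a median of -0.18, against 286 rises and 164 falls and a median of -0.04 over all 10844 genes. Sox14, an ecdysone-induced transcription factor gene needed for pruning, went from 6.78 at -18 h to 8.68 at 0 h and back to 6.39 ± 0.20 (SD, n = 3), a difference of -2.29 log2 units (limma adjusted p = 3.33e-07). The other falls were those of vri, Hr78, Hr4, EcR, br and Kr-h1, where the limma adjusted p of br (0.00718) reached 0.481 and that of Kr-h1 (0.0148) reached 0.126 over 26 alternatives. The nuclear receptor genes Hr78 and Hr4 likewise fell after a rise, by 0.85 (0.000248) and 0.79 (0.00216). ImpE1, an ecdysone-inducible gene, rose at both steps, by 1.21 and then 1.13 (7.09e-05), to 6.84, 6.26 and 6.54. EcR, the ecdysone receptor gene, fell by 0.93 (0.0203), with limma adjusted p from 8.34e-05 to 0.221 over 26 alternatives. The prepupal regulator gene ftz-f1 read 2.90, 2.63 and 2.95 as group means, below the lower quartile, and differed by 0.32 between 0 h and 5 h (adjusted p = 0.286).

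Among 57 genes known from pruning 0 are members, 0 rose (6 higher at an unadjusted p under 0.05) and 6 fell, with a median of -0.04. Besides Sox14 and EcR these were Rpn6 (-0.62, limma adjusted p = 0.00216), heca (-0.90, 0.00313), mamo (-0.54, 0.0140) and the activin-family ligand gene myo, myoglianin (-0.53, 0.0207). The adjusted p of heca reached 0.0671, that of mamo 0.571 and that of myo 0.164 over 26 alternatives. Part of what is known of that list comes from studies of mushroom body neurons, and its counts are not independent evidence of direction. Of 46 axon guidance and adhesion genes only klg fell, by 1.72 (6.69e-09) after a rise of 1.85, and 0 rose (4 higher at an unadjusted p under 0.05). Next by p were Fas1 (0.47, 0.0985), CadN (0.35, 0.148) and fra (-0.68, 0.158), which did not pass. The median was -0.04, and bdl is not on that list.

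In 48 genes of ion channels and the synapse 1 rose and 3 fell, with a median of -0.05. The rise was that of CngA, a cyclic nucleotide-gated channel gene, by 1.40 (limma adjusted p = 0.000417) to 7.86, 7.90 and 7.97. The falls were those of the potassium channel gene Sh by 0.78 (0.00628, up to 0.159 over 26 alternatives), the acetylcholine receptor subunit gene nAChRalpha2 by 0.55 (0.00710, up to 0.0788) and the GABA receptor gene Rdl by 0.74 (0.0208, up to 0.167). In 43 signalling genes spi, the ligand of the EGF receptor, rose by 0.55 (0.0114, up to 0.0697) and chico, an insulin receptor substrate, fell by 0.34 (0.0275, up to 0.144). dome (-0.42, 0.0619) and smo (-0.48, 0.171) did not pass, and the median was -0.07.

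In 42 genes of ubiquitin and autophagy the ubiquitin gene Ubi-p5E fell by 0.67 (limma adjusted p = 0.00266) and Roc1a, a ring subunit of cullin ligases, rose by 0.33 (0.0460, up to 0.310 over 26 alternatives), with a median of -0.09. Ubi-p63E (0.35, 0.0582) and Atg6 (-0.29, 0.220) did not pass. Of 12 clock genes vri fell by 1.49 (3.34e-05) after a rise of 2.42, and cyc rose by 0.43 (0.0471, up to 0.353). cwo (-0.52, 0.311) and dco (-0.22, 0.572) did not pass, and the median was -0.05. Of 21 stress and detoxification genes 3 were called higher and 0 lower (1 lower at an unadjusted p under 0.05), with a median of 0.01. They were Hsp26, a small heat shock protein gene, by 0.74 (0.00229), MtnA, a metallothionein gene, by 0.43 (0.0366, up to 0.302), and the member GstS1, whose contrast chose it. Hsp26 had already risen by 2.37 between -18 h and 0 h, and MtnA had fallen by 3.01, so neither was level at the first step. Sod2 (0.41, 0.122) did not pass.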

How the data were processed

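The submitters' processing notes name RMA and Affymetrix Expression Console, and the deposited values are log2 signals per probe set and array that the authors made with them. For versions, and whether the 17 arrays were normalised together: not given in the sources used here. RMA equalises the arrays' distributions and compresses differences near the background, so folds of dim genes are understated. The values were used as deposited. Of 14010 probe sets 44 controls were left out, and of the remaining 13966 a single symbol was found for 12443, several for 327 and none for 1196. The latter 1196 and 327 entered the fit but could not be members. Symbols came from the array's annotation, matched to a RefSeq gene table of assembly Release 6, used for names and neighbours only; 49 single symbols were not in it, and Fatp was the only member among them. All 17 columns were mapped to groups from the labels.

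A model with 3 group means was fitted to all 13966 probe sets with limma 3.58.1 (lmFit, eBayes) in R 4.3.3, with two-sided p-values adjusted by Benjamini and Hochberg and a threshold of 0.05. Every adjusted p is limma's and measures the spread between pooled samples. Precision is limited by how few arrays there are, with 3 in the oldest group. SD is over arrays. For lists, the probe set with the highest mean stood for a gene. The code was tested on simulated data.

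The members and the lists (ecdysone hierarchy, axon pruning, axon guidance and adhesion, ion channels and synapse, signalling pathways, ubiquitin and autophagy, circadian clock, stress and detoxification, and the cell type markers) were chosen with earlier results of these data known. Genes were named by rule: per direction the 14 proper symbols and 3 bare names farthest from the nearer group mean, members on a list, the 3 probe sets nearest each limit on either side, all of the 8 lower members, and per list the 4 genes with the smallest p. The other members, gene families and array-specific genes were named after their values were seen. Normalisation, filter, thresholds, arrays left out, covariates and probe set choice were varied. Sequences were not used here.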

Additional observations from a re-analysis of the deposited data

Results flagged for a closer look

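In 8 of 120 groups of 7 arrays an array stood apart from its group by Dixon's ratio of gap to range (critical value 0.568). Chance flags about 1 in 20 groups. They concern 7 members. Asph read 3.72 log2 in 0 h array 3, where the other 0 h arrays ran from 3.95 to 4.12. CG17224 read 4.12 in larval array 4, below 4.56 to 4.90 in the others. CG6357 read 2.57 in 0 h array 7, below 3.01 to 3.21. Fhos read 3.98 in 0 h array 2, above 3.57 to 3.70. Targ2 read 3.33 in larval array 2, below 3.63 to 3.75. CG5611 read 4.06 in 0 h array 1, above 3.69 to 3.84. Ac78C read 6.94 in larval array 4, above 6.05 to 6.30, and 6.11 in 0 h array 7, below 6.50 to 6.69. Groups of 3 arrays were not tested in this way, so the high values of Asph and tn in 5 h array 3 do not appear here.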

How the results depend on the processing

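Of the recomputed differences of members, 2783 moved by less than the spread between replicates, 53 by more, and 0 changed sign. Every 5 h value of a member lies beyond all earlier arrays by rule, so leaving out arrays could not change a sign. Nor could it make a member fail on overlap. Many of the 2783 could not move at all. Leaving out larval arrays keeps 5 h minus 0 h, leaving out 0 h arrays keeps 5 h minus -18 h, and dropping dim probe sets keeps every value. The tally therefore does not measure how robust the members are. With 0.7 in place of 0.5 log2 there were 27 higher and 4 lower members, with 1.0 there were 9 and 3, and with 0.2 in place of 0.3 log2 there were 38 and 4. Without probe sets under a mean of 5 log2, 33 and 5 remained. Quantile normalisation gave 49 (45 shared) and 13 (8 shared), and centring on the median 59 (50 shared) and 9 (8 shared). In the lower spike-in set 47 (35 shared) and 19 (7 shared) met the rule, with 5 list genes higher in place of 8. The split of calls at 5 h against 0 h, 329 higher and 198 lower, became 179 and 221 there; the cause was not tested. Leaving out each array in turn gave 49 to 69 higher and 8 to 17 lower members, with 17 lower without 5 h array 1, 13 without 0 h array 7 and 12 without 5 h array 3. Of the 52 and 8 members, 49 and 8 still met the rule without 5 h array 3 (tn, Spn27A and CG3500 did not) and 48 and 8 without array 1. With 5 h array 3 alone, an alternative chosen after seeing the data, 134 higher and 33 lower probe sets met it, 44 and 8 of them members; there the array's own value also stood for the 5 h mean, and the cause was not tested. Calls ran from 3270 to 3953 at 0 h against -18 h, from 304 to 562 at 5 h against 0 h and from 1938 to 3274 at 5 h against -18 h, and list genes from 5 to 9 higher and 11 to 19 lower. Calls at 5 h against 0 h were 332, 311 and 304 without 5 h array 1, 2 or 3, with fewer samples.

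The deviations of same-numbered arrays correlated from -0.281 to 0.367 over 13 pairs. Differently numbered arrays were not compared, so these values cannot decide whether the replicate numbers pair the samples. With the replicate number as a block, there were 3623 calls for 0 h against -18 h in place of 3568, 399 for 5 h against 0 h in place of 527, and 2682 for the whole span from -18 h to 5 h in place of 2799. The planned search for promoter motifs was not run. Signal over background limits the dim members most: tpr and CG6357 started, and Calx ended, below the lower quartile.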
